A study of Homo sapiens with 6 samples.

Results

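The 37 genes of the human mitochondrial genome, 13 mRNAs, 2 rRNAs and 22 tRNAs, were followed in the ovarian cancer cell line A2780. They were chosen by name, as the rows of the deposited gene count table whose Ensembl identifier maps to a symbol beginning with MT-, and they are 37 of 60564 rows. The 3 libraries labelled GPT2si were set against 3 libraries labelled GPT2sinc; the labels give this tag as the genotype, leave si and sinc unexplained, and name no other treatment, time or agent. The study is titled as one of GPT2 deficiency, and GPT2 is the mitochondrial alanine aminotransferase, which interconverts pyruvate and glutamate with alanine and alpha-ketoglutarate. Per the labels' protocols, all libraries were made from RNA selected with oligo(dT) beads and fragmented, with dUTP marking the second strand.

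Human mitochondrial DNA is a small circle whose genes are read as long RNAs from both strands by the polymerase POLRMT with TFAM and TFB2M. Most protein genes are separated by tRNA genes, and cutting out the tRNAs frees the mRNAs and rRNAs. Mitochondrial mRNAs then mostly receive a poly(A) tail, rRNAs receive a short tail, and mature tRNAs receive a CCA end. The proteins made are core subunits of respiratory complexes I, III, IV and V. By the usual convention, heavy-strand genes here are those that GENCODE 29 places on the plus strand of chrM (12 mRNAs, both rRNAs and 14 tRNAs), and light-strand genes are those on the minus strand (MT-ND6 and 8 tRNAs).

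GPT2 was lower in each GPT2si library, with 4714, 3677 and 4416 counts, than in each GPT2sinc library, with 10807, 10683 and 9516 counts. Total counts ran from 41931162 to 50882329 in GPT2si libraries and from 43351984 to 45508530 in GPT2sinc libraries, so that 3 counts, the limit that a count of 0 allows, equal 0.0597 to 0.0770 CPM. CPM are counts scaled to a common library size, here with TMM factors, which set the libraries on one scale by the bulk of their genes. Of the markers listed for epithelial and ovarian carcinoma cells, the keratins KRT8 and KRT18 averaged 38.4 and 31.2 CPM in GPT2si and 31.7 and 24.7 CPM in GPT2sinc. VIM, a mesenchymal marker, averaged 12368 and 12690 CPM in GPT2si and GPT2sinc. EPCAM averaged 1.61 and 1.94 CPM, KRT19 0.482 and 0.346 CPM, MSLN 0.379 and 0.686 CPM, CDH1 0.251 and 0.190 CPM and PAX8 0.195 and 0.176 CPM, MUC16 was at or near 0, and WT1 had no count, so most of the epithelial and ovarian markers were near absent. Among markers of other cell types, the 6 leukocyte markers summed to 4.85 to 8.95 CPM in GPT2si and 6.66 to 6.80 CPM in GPT2sinc, with CD3E at 0, the 4 endothelial markers to at most 0.263 and 0.299 CPM, the 4 erythroid markers to 1.25 to 1.28 and 1.52 to 1.85 CPM, with HBB and ALAS2 at 0, and the 6 fibroblast markers to 529.7 to 569.9 and 525.9 to 548.4 CPM, of which COL1A2 averaged 261 and 243 CPM. In bulk RNA, fewer copies of a transcript per cell and fewer cells that make it cannot be told apart.

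The 3 classes of mitochondrial RNA did not go the same way. The rRNA rows took a smaller part of all counts in GPT2si than in GPT2sinc and the tRNA rows a larger part. The mRNA rows overlapped as a share of all counts, though not in TMM-scaled CPM. The 2 rRNAs held 0.491, 0.446 and 0.512% of all counts in GPT2si 1 to 3, against 0.729, 0.582 and 0.610% in GPT2sinc 1 to 3. The 22 tRNAs held 0.0317, 0.0363 and 0.0312% in GPT2si and 0.0286, 0.0214 and 0.0264% in GPT2sinc. The 13 mRNAs held 4.37, 5.08 and 4.46% in GPT2si and 4.54, 3.38 and 4.14% in GPT2sinc. Every GPT2si library thus lay below every GPT2sinc library for rRNA and above it for tRNA, whereas GPT2sinc 1 had a larger mRNA share than GPT2si 1 and 3. Scaled with TMM factors, the 13 mRNAs summed to 44235, 54614 and 44244 CPM in GPT2si. They summed to 42907, 33128 and 41585 CPM in GPT2sinc, so on that scale the mRNAs too were higher in GPT2si without overlap. All 37 rows together took 4.89, 5.56 and 5.00% in GPT2si and 5.30, 3.99 and 4.78% in GPT2sinc, and these groups overlapped. With 3 libraries against 3, a two-sided exact permutation test cannot give a p below 0.1, so none of these shares could pass 0.05.

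**Figure D1:**
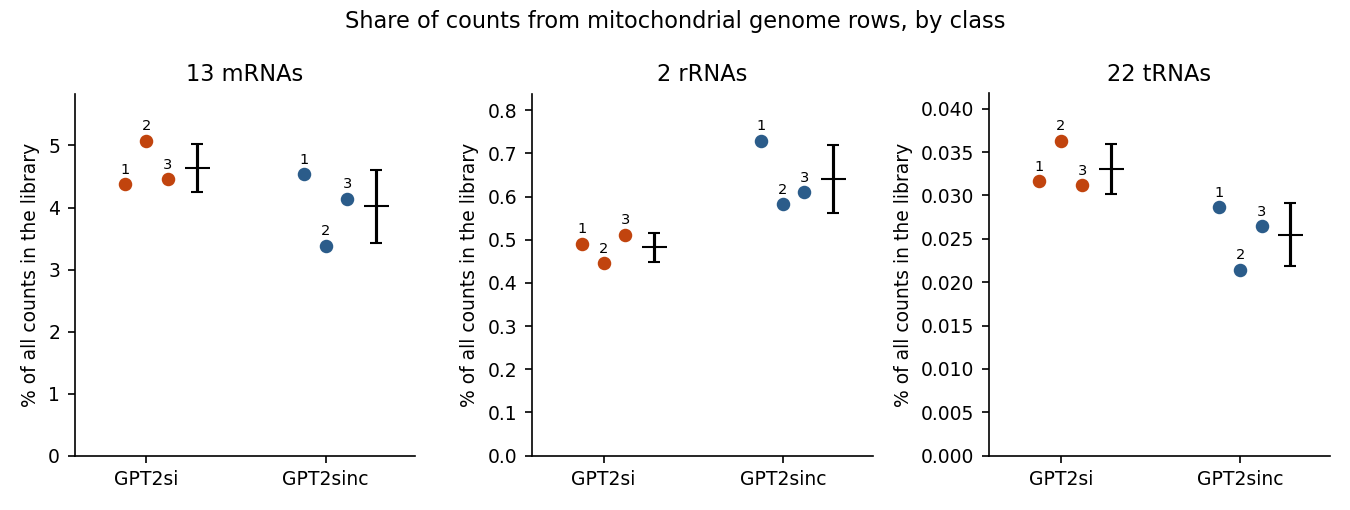
Share of all counts in each library (vertical axes, %, each from 0) for the 13 mRNAs, 2 rRNAs and 22 tRNAs of the mitochondrial genome. Points are libraries with their replicate numbers, and bars are mean ± SD (n = 3 each); the rRNA share averaged 0.483% in GPT2si and 0.640% in GPT2sinc, with no overlap.

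Ratios taken within a library need no scaling between libraries, and they set the classes directly against each other. For every 100 mRNA counts there were 11.2, 8.78 and 11.5 rRNA counts in GPT2si and 16.1, 17.2 and 14.7 in GPT2sinc, a log2 difference of −0.62. The lowest GPT2sinc library was above the highest GPT2si library. The tRNA rows gave 0.713 ± 0.0130 counts per 100 mRNA counts in GPT2si and 0.634 ± 0.00387 in GPT2sinc (SD, n = 3 each), a log2 difference of 0.17, again without overlap. Leaving out each library in turn left the rRNA ratio between −0.69 and −0.49 and the tRNA ratio between 0.16 and 0.18. Offsets for GC content and gene length, set gene by gene, were not applied to these ratios.

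Libraries numbered 2 stood apart in both groups. Relative to the mean of the 6 libraries, the median mRNA was 0.06, 0.37 and 0.04 on the log2 scale in GPT2si 1 to 3, against −0.07, −0.40 and −0.05 in GPT2sinc 1 to 3. The median edgeR log2 fold change of the 13 mRNAs was 0.34, and it was 0.21 without GPT2si 2 and 0.23 without GPT2sinc 2. The mRNA share of all counts differed by 0.615 percentage points between the group means, by 0.395 without GPT2si 2 and by 0.295 without GPT2sinc 2. For the rRNAs the mean log2 fold change was −0.37, and −0.36 and −0.43 without those libraries.

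Taken one gene at a time, 1 of the 35 members that passed the low-count filter passed the edgeR quasi-likelihood test (Benjamini-Hochberg adjusted p under 0.05 over 17006 genes): MT-TE, which rose. Over all tested genes 0.576% rose and 0.841% fell, 1.42% in either direction. At an unadjusted p under 0.05, 11 members were higher and 2 lower, where 10.3% of all tested genes were higher and 9.27% lower (19.6% either way). The groups did not overlap for 19 members that were higher in GPT2si (7 mRNAs and 12 tRNAs) and for the 2 rRNAs, which were lower, where 14.9% of all tested genes were higher and 13.2% lower without overlap (28.2% either way). The DESeq2 Wald test called 6 members higher (MT-ND2, MT-CO3, MT-CYB, MT-TC, MT-TY and MT-TE) and the 2 rRNAs lower, where it called 4.38% of its genes higher and 3.38% lower (7.77% either way). DESeq2 gave no adjusted p for the tested rows MT-TI, MT-TQ, MT-TM, MT-TW, MT-TA, MT-TN, MT-TK, MT-TR, MT-TH and MT-TS2. The median log2 fold change was 0.34 over the mRNAs, −0.37 over the rRNAs and 0.36 over the 20 tested tRNAs (0.12 with GC and length offsets), against −0.01 over all tested genes. With the same offsets it was 0.31 over the mRNAs and −0.36 over the rRNAs.

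The rRNAs form the cores of the 2 subunits of the mitochondrial ribosome. MT-RNR1, of the small subunit, lies at chrM:648-1601 (GRCh38, plus strand), and MT-RNR2, of the large subunit, at chrM:1671-3229, with the tRNA gene MT-TV between them. MT-RNR2 stood at 4207, 4133 and 4350 CPM in GPT2si 1 to 3, against 5784, 4798 and 5236 CPM in GPT2sinc 1 to 3. The highest GPT2si library was below the lowest GPT2sinc library, and the log2 fold change was −0.32 (SE 0.09; edgeR adjusted p = 0.116). MT-RNR1 stood at 758, 665 and 727 CPM in GPT2si and 1105, 906 and 886 CPM in GPT2sinc. It too had no overlap, with a log2 fold change of −0.43 (SE 0.10; edgeR adjusted p = 0.0773). Neither rRNA passed the edgeR test.

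MT-RNR2, MT-TL1 and MT-ND1 are neighbours on one heavy-strand RNA, and MT-ND1 encodes a membrane subunit of complex I. For every 100 MT-ND1 counts, MT-RNR2 had 110, 85.2 and 114 counts in GPT2si and 170, 174 and 151 counts in GPT2sinc. MT-TL1, a leucine tRNA whose gene lies between them, kept nearly the same number per 100 MT-ND1 counts, with 0.815 ± 0.0623 in GPT2si and 0.807 ± 0.00795 in GPT2sinc (SD, n = 3 each), and these groups overlapped. Per 100 MT-RNR2 counts MT-TL1 had 0.797 ± 0.0662 in GPT2si and 0.491 ± 0.0357 in GPT2sinc. The groups did not overlap in that ratio. The tRNA rows before each rRNA, MT-TF and MT-TV, had log2 fold changes of −0.03 (SE 0.15) and 0.10 (SE 0.18), and both overlapped between groups. With GC and length offsets MT-TF had −0.27, MT-TV −0.17 and MT-TL1 0.18, so how these rows stand to the rRNAs depends on that setting.

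**Figure D2:**
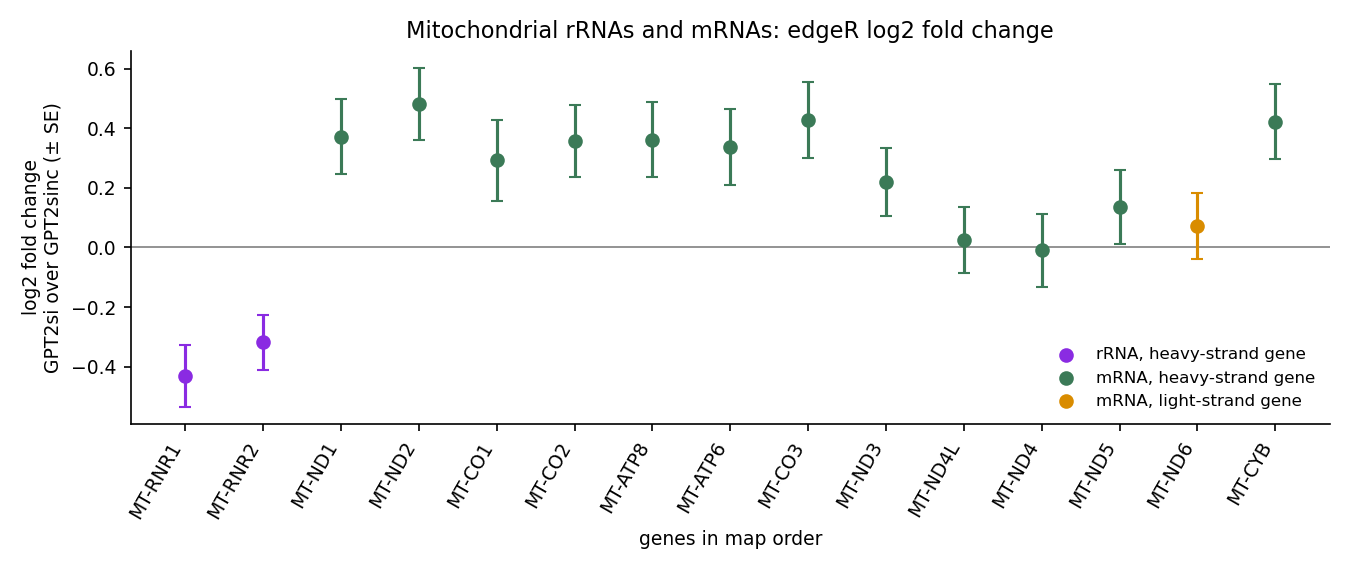
edgeR log2 fold change of GPT2si over GPT2sinc (vertical axis) for the 2 rRNAs and 13 mRNAs in their order along the mitochondrial genome (horizontal axis), with bars of ± SE. Both rRNAs lie below 0 at −0.43 and −0.32, the mRNAs from MT-ND1 to MT-CO3 lie between 0.29 and 0.48, and MT-ND4L and MT-ND4 lie at 0.02 and −0.01.

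Of the mRNAs, 12 had a positive log2 fold change and 1 a negative one, and none passed the edgeR test. Without GPT2si 2, and likewise without GPT2sinc 2, 10 were positive and 3 negative, and with upper-quartile factors 11 and 2. Complex I subunits were the most uneven. MT-ND2 had the highest value of the 13: 2343, 2886 and 2322 CPM in GPT2si, against 1964, 1543 and 1902 CPM in GPT2sinc, with no overlap and a log2 fold change of 0.48 (SE 0.12; edgeR adjusted p = 0.0851). MT-ND1 followed at 0.37 (SE 0.13) without overlap. MT-ND3, MT-ND5 and MT-ND6 had 0.22, 0.13 and 0.07 and overlapped. MT-ND4, another membrane subunit, had 5619, 6670 and 6028 CPM in GPT2si and 6921, 5102 and 6408 CPM in GPT2sinc. Its values were intermixed, and the log2 fold change was −0.01 (SE 0.12); MT-ND4L, whose reading frame overlaps that of MT-ND4, had 0.02 (SE 0.11). The median over the 7 complex I mRNAs was 0.13.

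MT-CYB, cytochrome b, is the one mitochondrially encoded subunit of complex III. It had 1847, 2353 and 1992 CPM in GPT2si, against 1644, 1297 and 1679 CPM in GPT2sinc, with no overlap and a log2 fold change of 0.42 (SE 0.13; edgeR adjusted p = 0.121). Complex IV, cytochrome c oxidase, takes 3 catalytic core subunits from this genome. MT-CO3 had 6599, 8167 and 6205 CPM in GPT2si and 5342, 4511 and 5727 CPM in GPT2sinc, without overlap, and a log2 fold change of 0.43 (SE 0.13; edgeR adjusted p = 0.121). MT-CO2 had 0.36 (SE 0.12) without overlap. MT-CO1, the most counted member, had 12673, 15982 and 12663 CPM in GPT2si and 12692, 9336 and 11716 CPM in GPT2sinc. GPT2sinc 1 lay just above GPT2si 1 and 3, and the log2 fold change was 0.29 (SE 0.14; edgeR adjusted p = 0.275). The complex V genes MT-ATP8 and MT-ATP6, which encode membrane subunits of ATP synthase, had 0.36 (SE 0.13) and 0.34 (SE 0.13), both without overlap.

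Because a share of the mRNA counts does not depend on the size of the library, the mix of the 13 mRNAs was compared as well. In GPT2si it held more MT-ND1, MT-ND2, MT-ATP8, MT-ATP6, MT-CO3 and MT-CYB and less MT-ND4L, MT-ND4, MT-ND5 and MT-ND6 than in GPT2sinc, 6 and 4 mRNAs whose groups did not overlap. In CPM, a different measure, 28.2% of all tested genes did not overlap in either direction, and no such count exists for shares. MT-ND4 made up 12.7, 12.2 and 13.6% of mRNA counts in GPT2si, against 16.1, 15.4 and 15.4% in GPT2sinc. MT-ND2 made up 5.30, 5.28 and 5.25% in GPT2si, against 4.58, 4.66 and 4.57% in GPT2sinc. Within each group the MT-ND2 share varied by an SD of 0.0250 and 0.0478 percentage points, against a difference of 0.675 points between the groups. MT-CO3 made up 14.9, 15.0 and 14.0% in GPT2si and 12.5, 13.6 and 13.8% in GPT2sinc, so its groups lay closer to each other. The shares of MT-CO1, MT-CO2 and MT-ND3 overlapped. The shares of one library sum to a whole, so one mRNA's gain is the others' loss. An exact permutation p for any of them cannot be below 0.1.

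**Figure D3:**
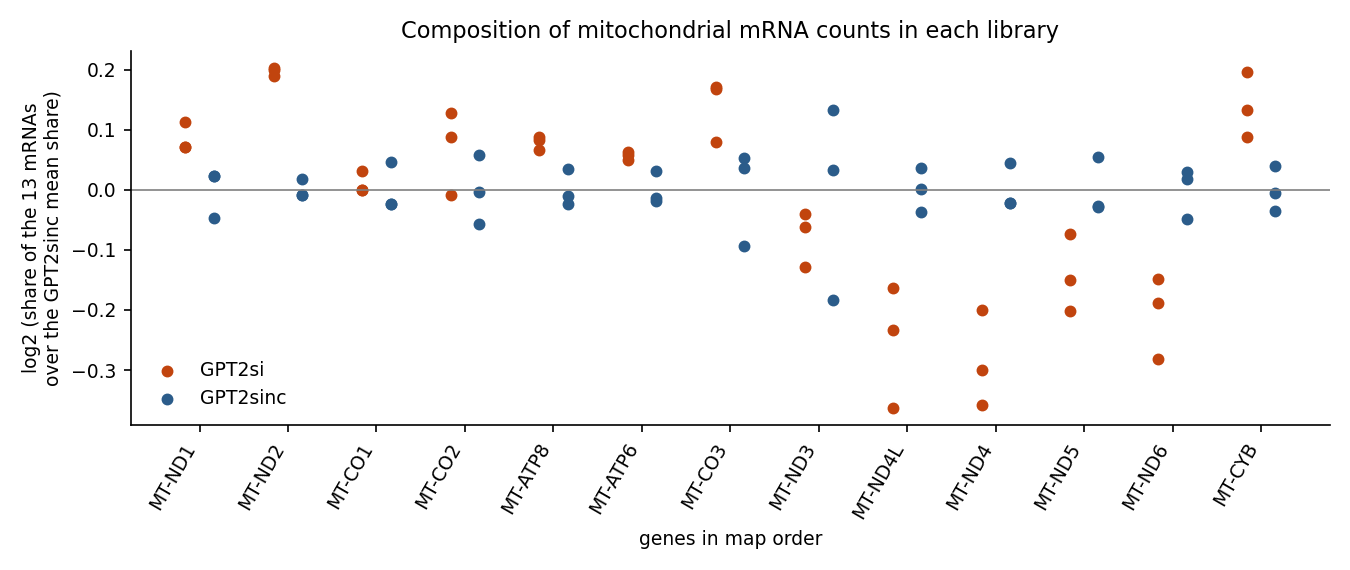
Each mRNA's share of the 13 mRNAs' counts in each library, as the log2 of that share over the mean GPT2sinc share (vertical axis), in map order (horizontal axis). Points are libraries, GPT2si left and GPT2sinc right of each gene; MT-ND2 lies higher and MT-ND4 lower in all 3 GPT2si libraries than in any GPT2sinc library.

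The mRNAs were also grouped by map position, with borders set after the values were seen, so likeness within a group follows partly from that choice. The 7 mRNA genes from MT-ND1 to MT-CO3 had log2 fold changes from 0.29 to 0.48, and the 5 from MT-ND3 to MT-ND6 had −0.01 to 0.22. MT-CYB, the last mRNA gene, was back at 0.42. Across the borders, 0.43 for MT-CO3 stood beside 0.22 for MT-ND3, and 0.07 for MT-ND6 beside 0.42 for MT-CYB. Steps at the borders follow from how the borders were set. Within the groups, MT-ND2 at 0.48 beside MT-CO1 at 0.29 and MT-ND3 at 0.22 beside MT-ND4L at 0.02 were steps about as large as the first. MT-CO3 had 117, 122 and 103 counts per 100 MT-ND4 counts in GPT2si and 77.2, 88.4 and 89.4 in GPT2sinc. MT-CYB had 76.6, 81.9 and 78.3 counts per 100 MT-ND5 counts in GPT2si and 61.0, 66.0 and 68.1 in GPT2sinc. Neither ratio overlapped between GPT2si and GPT2sinc. Each pair sets a gene with a high fold change against one with a low fold change across a border, and the paired mRNA genes are not direct neighbours. Their separation thus follows from that choice and is no test of a pattern by position.

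Pairs of genes that share an mRNA had nearly constant ratios. MT-ATP8 and MT-ATP6 are translated from one mRNA with frames overlapping by 46 bases, and MT-ND4L and MT-ND4 from another with frames overlapping by 7 bases. The overlaps are shown because reads there belong to both genes of a pair; the starts of the downstream frames are printed with the overlap in capitals (GRCh38, GENCODE 29 transcripts, plus strand).
MT-ATP6, chrM:8527-8586: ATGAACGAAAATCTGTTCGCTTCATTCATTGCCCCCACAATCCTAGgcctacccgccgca
MT-ND4, chrM:10760-10819: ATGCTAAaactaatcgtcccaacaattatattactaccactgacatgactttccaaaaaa
For every 100 MT-ND4 counts, MT-ND4L had 15.6 to 16.4 in GPT2si and 15.4 to 15.9 in GPT2sinc, and the groups overlapped. For every 100 MT-ATP6 counts, MT-ATP8 had 30.6, 31.2 and 31.3 in GPT2si and 30.4, 30.6 and 30.6 in GPT2sinc, a log2 difference of 0.02 with no overlap. How reads in an overlap were assigned is not given in the labels or the table.

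Many human mitochondrial mRNAs end in T or TA, and the poly(A) tail then completes the stop codon. The last 30 bases of 5 mRNA genes as annotated are printed (GRCh38, GENCODE 29 transcripts), because the libraries were selected by poly(A) tail. Capitals mark the last codon, whole or partial. Where these RNAs end in the cells was not tested. MT-ND2 and MT-CYB were among the highest mRNAs in GPT2si relative to GPT2sinc, MT-ND4 was the lowest, and MT-CO1 and MT-ND6 end in AGA and AGG.
MT-ND2, chrM:5482-5511, plus strand: ctatctccccttttatactaataatcttaT
MT-CYB, chrM:15858-15887, plus strand: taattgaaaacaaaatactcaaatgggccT
MT-ND4, chrM:12108-12137, plus strand: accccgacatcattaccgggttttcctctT
MT-CO1, chrM:7416-7445, plus strand: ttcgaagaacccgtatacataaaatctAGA
MT-ND6, chrM:14149-14178, minus strand: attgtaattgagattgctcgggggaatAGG
The 6 mRNAs with an incomplete stop codon (MT-ND1, MT-ND2, MT-CO3, MT-ND3, MT-ND4 and MT-CYB) had log2 fold changes from −0.01 to 0.48 with a median of 0.40. The 7 with a complete one, counting the AGA of MT-CO1 and the AGG of MT-ND6 as such, ran from 0.02 to 0.36 with a median of 0.29. This split goes by the annotated gene ends. MT-ATP6, among the 7, shares its last annotated base with the start of MT-CO3, so its place depends on where the RNA is cut. The ranges overlapped almost wholly, and the mRNAs ending in T hold both the highest and the lowest value of the 13. Spearman correlations across the 13 mRNAs, which share one genome and the same libraries, are given as a description. The log2 fold change had −0.49 with map order, 0.34 with GC content, 0.12 with mean count and 0.07 with gene length.

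Per kilobase of gene, MT-CO1 and MT-CO3 were the most abundant members, at 8932 ± 1241 and 8916 ± 1324 CPM per kilobase in GPT2si and 7294 ± 1120 and 6624 ± 792 in GPT2sinc (SD, n = 3 each), and these neighbours did not differ beyond their spread. In GPT2si, MT-CO2, MT-ATP8, MT-ATP6, MT-ND4 and MT-ND1 followed at 5173 to 4349 CPM per kilobase, each within the spread of the next. In GPT2sinc the third place was held by MT-ND4 at 4459 ± 681 CPM per kilobase, within the spread of MT-CO2 at 4034 ± 409. MT-RNR2 stood at 2713 ± 71.0 CPM per kilobase in GPT2si and 3382 ± 317 in GPT2sinc, and MT-RNR1 at 751 ± 49.5 and 1012 ± 127. The rRNAs are usually far more abundant in mitochondria than any mRNA, and the part that poly(A) selection has in these levels was not tested. MT-ND6 was the lowest mRNA, at 312 ± 24.6 CPM per kilobase in GPT2si and 297 ± 39.3 in GPT2sinc.

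In summed counts relative to the heavy strand, the light strand had less mRNA and more tRNA in GPT2si than in GPT2sinc. All light-strand genes together had 0.857, 0.860 and 0.842 counts per 100 heavy-strand counts in GPT2si, against 0.797, 0.787 and 0.794 in GPT2sinc, a log2 difference of 0.11. MT-ND6, the one light-strand mRNA and a subunit of complex I, had 0.350, 0.328 and 0.360 counts per 100 heavy-strand mRNA counts in GPT2si, against 0.407, 0.404 and 0.386 in GPT2sinc, a log2 difference of −0.21. The 8 light-strand tRNAs had 4.95, 5.61 and 4.80 counts for each heavy-strand tRNA count in GPT2si, against 4.55, 4.46 and 4.64 in GPT2sinc, a log2 difference of 0.17. None of these ratios overlapped between the groups. The last rests partly on GPT2si 2, without which it was 0.10. It also rests on few rows, mostly MT-TY, MT-TC and MT-TS1 over MT-TL1, with means of 5611, 2582, 2150 and 1338 counts. With GC and length offsets these rows had log2 fold changes of 0.24, 0.18, −0.20 and 0.18, so the tRNA difference between strands depends on that setting. Without offsets the median log2 fold change was 0.37 over light-strand tRNAs and 0.34 over tested heavy-strand tRNAs. All 9 light-strand genes had positive log2 fold changes in the gene-wise fit, from 0.07 for MT-ND6 to 0.92 for MT-TE. With GC and length offsets 7 were positive and 2, MT-TS1 and MT-TQ, negative, and MT-ND6 was at −0.026 without GPT2sinc 2 and at −0.0079 without GPT2si 2. The strand setting of the counting is not given in the labels or the table, so reads of a light-strand gene and of heavy-strand RNA opposite to it cannot be told apart.

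The tRNA rows were sparse apart from a few. Means over the 6 libraries ran from 5.67 counts for MT-TL2 to 5611 counts for MT-TY, and 19 of the 22 had a mean of at least 10 counts. MT-TL2 and MT-TG did not pass the low-count filter. The genes are 59 to 75 bases long, shorter than the library fragments, so a tRNA row can also hold reads from precursors or from neighbours that reach into it. Of the 20 tested, 19 had a positive log2 fold change and 1, MT-TF, a negative one. With GC and length offsets in the fit, 14 were positive and 6 negative, and the median log2 fold change of the tRNAs was 0.12 in place of 0.36.

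Glutamate and tyrosine tRNA genes are printed because MT-TE was the one member past the test and MT-TY was the tRNA row with the most counts (GRCh38, GENCODE 29 transcripts, minus strand of chrM, capitals for the anticodon that a search for a 7-base loop closed by 5 base pairs found).
MT-TE, chrM:14674-14742: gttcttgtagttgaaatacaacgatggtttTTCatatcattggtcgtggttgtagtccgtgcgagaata
MT-TY, chrM:5826-5891: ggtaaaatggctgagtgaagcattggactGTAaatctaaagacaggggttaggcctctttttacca
MT-TE lies directly beside MT-ND6 on the same strand and 4 bases from MT-CYB on the other.

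MT-TE, which carries glutamate to the mitochondrial ribosome, had 572, 507 and 472 counts in GPT2si 1 to 3, against 305, 257 and 268 counts in GPT2sinc 1 to 3. Every GPT2si library was well above every GPT2sinc library. Its level was 11.6 ± 1.34 CPM in GPT2si and 6.11 ± 0.560 CPM in GPT2sinc (SD, n = 3 each), and it rose by 0.92 on the log2 scale (SE 0.15; edgeR adjusted p = 0.0250). The call was lost without the low-count filter (edgeR adjusted p = 0.0604) and without GPT2si 1, GPT2sinc 1, GPT2sinc 2 or GPT2sinc 3 (edgeR adjusted p = 0.131, 0.105, 0.156 and 0.113), while the log2 fold change stayed between 0.70 and 1.00 in all alternatives. Its ratio to each neighbour was also higher in GPT2si. For every 100 MT-ND6 counts MT-TE had 7.38, 7.29 and 6.53 counts in GPT2si and 3.82, 4.15 and 3.86 in GPT2sinc. For every 100 MT-CYB counts it had 0.616, 0.553 and 0.520 in GPT2si and 0.404, 0.426 and 0.367 in GPT2sinc. Both ratios separated the groups fully.

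**Figure D4:**
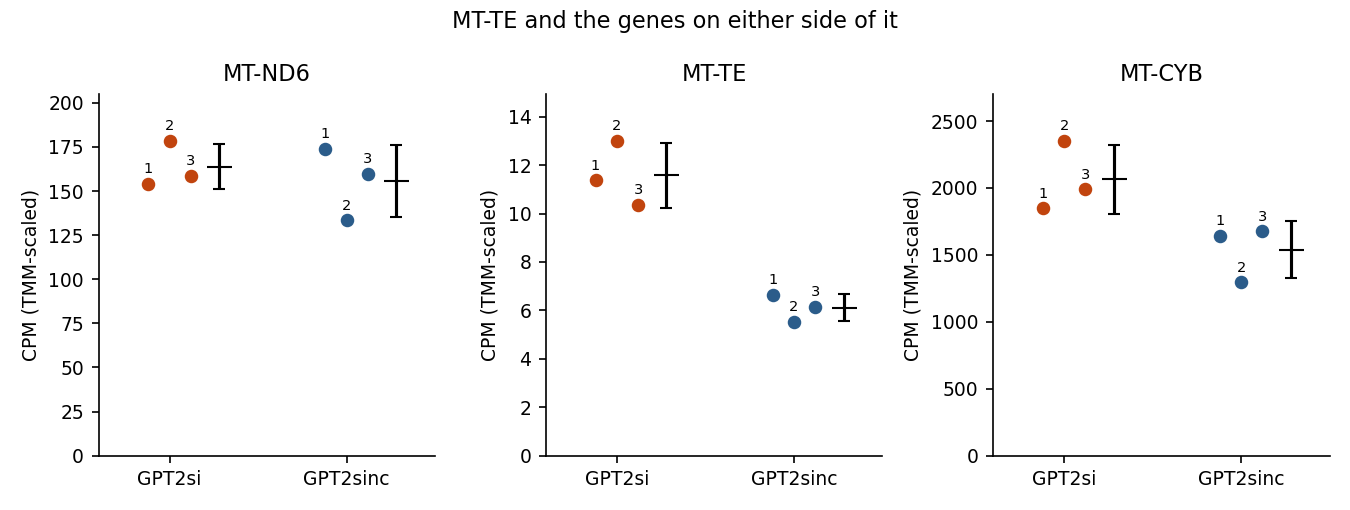
TMM-scaled CPM (vertical axes, each from 0) of MT-TE and of the genes on either side, MT-ND6 and MT-CYB. Points are libraries with their replicate numbers and bars are mean ± SD (n = 3 each); MT-TE averaged 11.6 CPM in GPT2si and 6.11 CPM in GPT2sinc, MT-CYB was apart by less, and MT-ND6 overlapped.

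The adjoining light-strand genes MT-TC and MT-TY, for cysteine and tyrosine tRNA, varied together. MT-TY had 138, 175 and 132 CPM in GPT2si, against 110, 85.8 and 112 CPM in GPT2sinc, with no overlap and a log2 fold change of 0.53 (SE 0.14; edgeR adjusted p = 0.0857), which was 0.24 with GC and length offsets. MT-TC had 63.1, 81.9 and 60.7 CPM in GPT2si and 50.2, 38.4 and 52.2 CPM in GPT2sinc, with a log2 fold change of 0.55 (SE 0.15; edgeR adjusted p = 0.104), which was 0.18 with these offsets. MT-TC counts per 100 MT-TY counts were 46.2 ± 0.623 in GPT2si and 45.7 ± 0.984 in GPT2sinc (SD, n = 3 each), and overlapped. MT-TY lies 12 bases from the start of MT-CO1 on the other strand; per 100 MT-CO1 counts it had 1.09, 1.09 and 1.04 in GPT2si and 0.868, 0.919 and 0.953 in GPT2sinc, without overlap. MT-TS1, a serine tRNA gene at the other end of MT-CO1, had 0.374 ± 0.0193 and 0.396 ± 0.0181 counts per 100 MT-CO1 counts in GPT2si and GPT2sinc, which overlapped, and a log2 fold change of 0.21 (SE 0.12), which was −0.20 with the offsets.

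Among the other tRNAs, MT-TL1 had 32.1, 36.1 and 32.8 CPM in GPT2si and 27.8, 22.2 and 27.8 CPM in GPT2sinc, without overlap, and a log2 fold change of 0.38 (SE 0.12; edgeR adjusted p = 0.136; 0.18 with the offsets). MT-TT, MT-TP and MT-TD, for threonine, proline and aspartate, had 0.31, 0.38 and 0.33, each without overlap and none past the test. MT-TR, for arginine, had the highest tRNA value, 0.93, but on 7 to 21 counts per library and with an SE of 0.42 (edgeR adjusted p = 0.258). MT-TK and MT-TM had 0.66 and 0.50 with SE of 0.38 and 0.30. MT-TI, MT-TQ, MT-TW, MT-TA, MT-TN and MT-TH, with 13.5 to 36.8 mean counts, had 0.01 to 0.40 with SE of 0.26 to 0.39, so differences of that size could not be resolved at this depth.

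**Figure D5:**
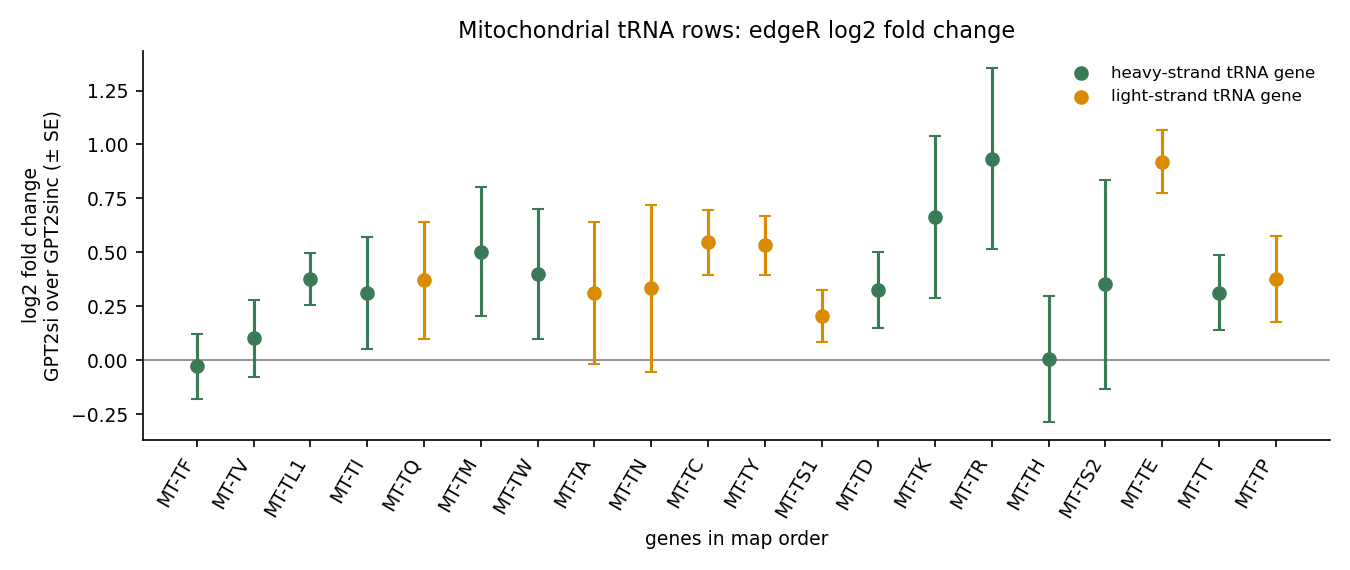
edgeR log2 fold change of GPT2si over GPT2sinc (vertical axis, ± SE) for the 20 tested tRNA rows in map order (horizontal axis), coloured by strand. MT-TE lies at 0.92 with a narrow bar; MT-TR lies at 0.93 with an SE of 0.42.

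Nuclear DNA holds near-identical copies of mitochondrial genes. Of 404 rows named as such copies, 24 had any count, and 4 stood out, all on the plus strand of chromosome 1 (GRCh38). MTND2P28 (chr1:629640-630683) had 19.0 to 21.2% as many counts as MT-ND2, MTATP6P1 (chr1:633696-634376) 12.6 to 14.4% as many as MT-ATP6, MTND1P23 (chr1:629062-629433) 4.25 to 5.02% as many as MT-ND1, and MTCO1P12 (chr1:631074-632616) 2.22 to 2.63% as many as MT-CO1. The 60 bases in which MT-ND2 and MTND2P28 differ most are printed, with the 4 differing bases in capitals, to show how few bases tell the genes apart.
MT-ND2, chrM:4899-4958: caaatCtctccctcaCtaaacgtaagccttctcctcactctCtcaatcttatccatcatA
MTND2P28, chr1:630069-630128: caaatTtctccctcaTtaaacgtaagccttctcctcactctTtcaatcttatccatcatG
Over 1042 aligned bases the pair differed at 17 and was 98.4% identical, so counts of these pairs are uncertain where reads fit both. The copies had log2 fold changes of 0.41 (MTND2P28), 0.32 (MTATP6P1), 0.26 (MTND1P23) and 0.18 (MTCO1P12), and none passed the edgeR test. With the counts of 7 copies added to their mitochondrial genes, MT-ND2 had 0.47 in place of 0.48 and MT-TE stayed the one member past the test.

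Nuclear genes that act on the mitochondrial genome were taken as a list of 70, of which 69 were tested: 63 for factors that copy, cut, protect, modify or degrade its RNA or maintain its DNA, and 7 regulators of nuclear genes for mitochondrial proteins. None of the 63 passed the edgeR test. Of the 7 regulators 6 were tested and 1 passed: PPRC1, the PGC-1-related coactivator, rose. That is 1 of the 69, where over all tested genes 0.576% rose and 0.841% fell, 1.42% either way. At an unadjusted p under 0.05, 18 of the 69 were higher and 2 lower, beside 10.3% and 9.27% of all tested genes. DESeq2 called 5 higher and 1 lower, beside 4.38% and 3.38% of its genes, and the median log2 fold change was 0.13. PPRC1 had 81.5, 105 and 82.4 CPM in GPT2si, against 46.0, 52.7 and 55.1 CPM in GPT2sinc, fully apart, with a log2 fold change of 0.81 (SE 0.12; edgeR adjusted p = 0.0230). The PPRC1 call was lost without the low-count filter and without GPT2si 1, GPT2sinc 1, GPT2sinc 2 or GPT2sinc 3 (edgeR adjusted p = 0.0602, 0.0859, 0.135, 0.141 and 0.0816).

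By role, no transcription gene passed. POLRMT, the polymerase, had 102 ± 18.6 CPM in GPT2si and 99.8 ± 4.75 CPM in GPT2sinc (SD, n = 3 each) with a log2 fold change of 0.03, and its partners TFAM and TFB2M had 0.21 and 0.38. TRMT10C and PRORP, of the complex that cuts before tRNAs, and ELAC2, which cuts after them, had 0.12, −0.53 and 0.29. PRORP overlapped between groups (SE 0.20, edgeR adjusted p = 0.184). TFB1M, from the list for rRNA and tRNA modification, had −0.49 without overlap (SE 0.14, edgeR adjusted p = 0.113). PRORP and TFB1M were the 2 lower genes at an unadjusted p under 0.05, and TFB1M was the 1 that DESeq2 called lower. LRPPRC and SLIRP, partners that protect mitochondrial mRNAs, had −0.14 and 0.32, with LRPPRC at 133, 86.0 and 151 CPM in GPT2si and 154, 126 and 126 CPM in GPT2sinc. The poly(A) polymerase MTPAP had 0.07, and PNPT1 and SUPV3L1, the exonuclease and helicase of the degradosome, had 0.08 and 0.07. The next smallest p after PPRC1 belonged to PUS1, a pseudouridine synthase acting on tRNA, with a log2 fold change of 0.55 (edgeR adjusted p = 0.0567), then to the coactivator PPARGC1B with 0.57 (0.0599) and ALKBH1, a tRNA-modifying dioxygenase, with 0.42 (0.0711).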

How the data were processed

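The authors deposited raw counts, whole numbers per Ensembl gene, for 6 libraries. Per the submitters' processing notes CASAVA and StringTie were used; their roles, the aligner, counting program, strand setting and genome build are not given in the sources. Members and gene lists were chosen with earlier results of these data known. GENCODE 29 (GRCh38) gave positions, strands and sequences.

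Counts were tested with edgeR 4.0.16 (glmQLFit and glmQLFTest; R 4.3.3), TMM factors, filterByExpr, and Benjamini-Hochberg adjustment over 17006 genes at 0.05. Shares and ratios of summed counts (9 in all, and 13 mRNA shares) were compared over libraries, where a two-sided exact permutation p cannot be below 0.1. The text names all mRNAs and rRNAs, tRNAs averaging at least 10 counts, GPT2, the 4 nuclear copies with the most counts, and machinery genes past the test, with the 4 smallest p or fixed by name. PRORP and TFB1M, the machinery genes lower at an unadjusted p under 0.05, were named after their values were seen. Alternatives were DESeq2 1.42.0, limma-voom (limma 3.58.1), DESeq2 size factors, upper-quartile factors, TMM without the mitochondrial rows, other filters, a replicate block, GC and length offsets (loess span 0.5), left-out libraries and, chosen after seeing the data, copies added to their genes. No libraries were duplicates (chi-square per degree of freedom at least 8.23). Whether the libraries of a group are separate cultures is unstated in the labels; p-values then reflect only the spread among these libraries, and that spread may be technical. PCR reads are not independent molecules, so floors cover counting error only. The result of a single cell type marker is not reported here.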

Additional observations from a re-analysis of the deposited data

How the results depend on the processing

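The class shares and the class and strand ratios kept their direction in all alternatives run for them. With the TMM-scaled library size as denominator, the mRNA share differed by 0.849 percentage points in place of 0.615, and its groups no longer overlapped. GC and length offsets were not among these alternatives. In the gene-wise fit with these offsets, the median log2 fold change was 0.31 over the mRNAs and 0.12 over the tRNAs. How the tRNA rows stood to the mRNA rows therefore depends on that setting. The number of mitochondrial genome rows higher in GPT2si past the test, 1, was 6 with DESeq2, 2 with GC and length offsets, 2 with the replicate block, 0 without the low-count filter, and 0 to 1 when 1 library was left out. The number lower, 0, was 2 with DESeq2, 1 with GC and length offsets and 1 with the replicate block. For the machinery genes, 1 was higher: DESeq2 gave 5, GC and length offsets 9, the replicate block 3, no filter 0, and leaving out 1 library 0 to 5. None was lower, but DESeq2 gave 1 and GC and length offsets 1. Over all genes the 241 calls became 1056 with DESeq2, 2202 with GC and length offsets, 558 with the block, 44 without the filter, and 1 to 836 with 1 library left out. The cause was not tested. In their deviations from group means, same-numbered libraries of the groups correlated at 0.085, 0.114 and −0.187. Libraries with unlike numbers ran from −0.272 to 0.247. With 3 libraries per group these values cannot settle whether the numbers pair the libraries.

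Signs turned for several genes, not all of them near 0 in the main fit. There MT-TQ had 0.37, MT-TS1 0.21, LRPPRC −0.14 and MT-TV 0.10. With GC and length offsets the log2 fold change was −0.17 for MT-TV, −0.0062 for MT-TQ, −0.20 for MT-TS1, −0.019 for MT-ND4L, 0.0093 for MT-ND4, −0.17 for MT-TH and −0.015 for POLRMT. With upper-quartile factors it was −0.024 for MT-ND4L, −0.041 for MT-TH and −0.021 for POLRMT. With 1 library left out, it ran from −0.12 to 0.052 for MT-TF, −0.083 to 0.11 for MT-ND4L, −0.13 to 0.086 for MT-ND4, −0.12 to 0.093 for MT-TH, −0.026 to 0.16 for MT-ND6, −0.15 to 0.11 for POLRMT, −0.30 to 0.050 for LRPPRC, −0.061 to 0.16 for MTPAP, −0.088 to 0.20 for PNPT1 and −0.0063 to 0.11 for SUPV3L1; the MT-CO1 share of mRNA counts differed by −0.0358 to 0.667 points. Depth limits the tRNA rows with under 40 counts.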
